A study of Homo sapiens with 3 samples.

Results

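RNA-seq was performed on 3 independent biological replicates of HEK293T, a human embryonic kidney line that expresses the SV40 large T antigen, grown without treatment under 1 condition, so that no groups were compared. The small noncoding RNA genes described here were all genes that GENCODE v44 classes as small nucleolar RNA (snoRNA), small nuclear RNA (snRNA), small Cajal body RNA (scaRNA), microRNA (miRNA) or miscellaneous RNA (misc_RNA) and whose transcripts were listed in the deposited tables. There were 6979 of them among 61193 genes, namely 941 snoRNA, 1901 snRNA, 49 scaRNA, 1877 miRNA and 2211 misc_RNA genes. The libraries were QuantSeq 3′ mRNA-seq libraries made from total RNA and primed with oligo(dT), although the labels name the material as genomic DNA. The counts summed to 7019253, 6262175 and 8521624 in replicates 1, 2 and 3, and mitochondrial genes took 9.59%, 5.70% and 25.8% of them. Of the HEK293T markers, PAX2 had 42, 59 and 54 counts, KRT8 17, 8 and 27, LHX1 5, 4 and 6 and VIM 0, 6 and 5, whereas KRT18, NEFL and NEFM were at 0 in the 3 libraries. Of the markers of other cells, ALB, PTPRC and HBB were at 0 and COL1A1 had 747, 632 and 1129 counts, above each HEK293T marker listed. The counting of reads on several transcripts of a gene is not given in the sources used here. A low count at these markers is therefore not taken as absence of the RNA.

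As background, snoRNAs guide the chemical modification of ribosomal RNA, box C/D members directing methylation and box H/ACA members pseudouridylation, and most are cut out of the introns of other genes. scaRNAs do the same for the snRNAs, which form the core of the spliceosome. The RNA of the gene RNU7-1 belongs to the machinery that cuts histone pre-mRNAs. miRNA genes encode hairpin precursors, and misc_RNA holds mainly the RNA of the signal recognition particle (RN7SL), 7SK, Y RNAs, vault RNAs and their many copies. The mature forms of these RNAs generally lack a poly(A) tail.

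The sequences of 4 of the leading snoRNA and snRNA genes are shown with the letters that were searched for in their classes. The whole genes are given on GRCh38, and capitals mark, on the strand of the gene, ACA before the last 3 bases (H/ACA genes), the first TGATGA and the last CTGA (box C/D gene) and ATTTTTG, letters of the Sm-binding kind (snRNA gene).
SNORA12, chr10:100237156-100237302, minus strand: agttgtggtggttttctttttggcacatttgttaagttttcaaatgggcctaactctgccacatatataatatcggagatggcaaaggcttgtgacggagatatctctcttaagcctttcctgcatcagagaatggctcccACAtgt
SNORA79, chr14:81202695-81202834, minus strand: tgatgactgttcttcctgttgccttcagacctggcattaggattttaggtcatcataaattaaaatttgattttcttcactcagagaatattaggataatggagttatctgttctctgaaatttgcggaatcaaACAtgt
SNORD104, chr17:64146083-64146152, plus strand: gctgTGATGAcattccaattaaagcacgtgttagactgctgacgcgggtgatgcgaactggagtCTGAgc
RNU4ATAC, chr2:121530881-121531007, plus strand: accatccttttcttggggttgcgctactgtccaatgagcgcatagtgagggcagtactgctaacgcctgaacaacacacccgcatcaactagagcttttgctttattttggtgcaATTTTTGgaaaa

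Genes were taken as detected when they had more than 3 counts in every replicate, 3 being the most that a count of 0 allows. ACA stood before the last 3 bases in 142 of 213 SNORA genes (66.7%), in 9 of the 12 detected ones and in 3.25% of all other small RNA genes. TGATGA together with CTGA in the last 12 bases was held by 205 of 314 SNORD genes (65.3%), by 6 of the 8 detected ones and by 1.05% of the others. The detected snoRNA genes thus carried these letters about as often as the annotated ones. ATTTTTG was found in 116 of 1901 snRNA genes (6.10%), in 5 of the 43 detected ones and in 1.26% of the other small RNA genes. These letters thus do not mark the snRNA genes as a class. The strand opposite to the gene was not searched.

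Y RNAs and an RNU7 copy are shown by their ends, since the libraries were primed on A. Each of the following 5 sequences holds the last 40 bases of the gene and the 40 bases past its end, and capitals mark the window of 10 bases with most A where it held at least 8.
Y_RNA ENSG00000252965, chr3:125528204-125528283, minus strand: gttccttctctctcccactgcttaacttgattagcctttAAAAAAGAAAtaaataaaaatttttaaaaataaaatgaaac
Y_RNA ENSG00000252759, chr2:200863112-200863191, minus strand: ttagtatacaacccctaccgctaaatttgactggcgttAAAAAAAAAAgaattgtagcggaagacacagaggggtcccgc
RNY1, chr7:148987096-148987175, minus strand: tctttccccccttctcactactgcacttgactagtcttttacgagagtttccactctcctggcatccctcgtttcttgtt
RNY4, chr7:148963371-148963450, plus strand: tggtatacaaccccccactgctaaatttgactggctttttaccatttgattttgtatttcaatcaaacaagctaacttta
RNU7-75P, chr5:37327157-37327236, plus strand: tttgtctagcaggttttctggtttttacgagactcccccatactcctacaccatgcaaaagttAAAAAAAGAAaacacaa

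The Y RNA copies ENSG00000252965 and ENSG00000252759 ran into an A stretch at the annotated end, whereas the functional Y RNA genes RNY1 and RNY4 ended in a run of T. In RNU7-75P the window lay past the gene.

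The mature miRNAs of the detected miRNA genes are given in RefSeq for GRCh38.p14, where all 6 genes matched by symbol and 5 had a mature sequence. Capitals mark the seed, bases 2 to 8, through which a miRNA pairs with its targets.
hsa-miR-1244 (MIR1244-2): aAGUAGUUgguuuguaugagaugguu
hsa-miR-10b-3p (MIR10B): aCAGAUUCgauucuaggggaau
hsa-miR-320d (MIR320D1): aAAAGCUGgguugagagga
hsa-miR-3682-3p (MIR3682): uGAUGAUAcagguggagguag
hsa-miR-3682-5p (MIR3682): cUACUUCUaccuguguuaucau
hsa-miR-4292 (MIR4292): cCCCUGGGccggccuugg
The 6 mature sequences had 6 different seeds, so no seed was shared among those printed, which include the 3p arm of MIR10B and not its 5p arm.

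Small noncoding RNA genes took a small part of the reads counted in these libraries. They held 6480, 5400 and 7524 counts, or 0.0889% ± 0.0031 (SD, n = 3) of the counts. Mitochondrial counts, 5.70% to 25.8% of the libraries, are part of this total, and without them the share was 0.104%. The SDs of shares, of counts per 1000000 and of TPM given here and below thus also carry this difference between replicates. Of the 6979 genes, 841 (12.1%) had at least 1 count in any replicate, compared with 42.9% of all genes, and 6138 were at 0 in the 3 libraries, which allows up to 0.427, 0.479 and 0.352 counts per 1000000 each. Detection in every replicate was reached by 126 (1.81%), compared with 19.8% of all genes and 7874 of 19926 protein-coding genes (39.5%). A mean count of at least 10 was reached by 102, against 17.8% of all genes. Just outside the detection rule, with a lowest count of 3, lay 11 snRNA, 8 misc_RNA, 6 snoRNA and 5 miRNA genes, and just inside, with a lowest count of 4, lay 6 snRNA, 9 misc_RNA and 2 snoRNA genes. By each of these rules, small noncoding RNA genes were found less often than genes in general. The handling of reads on overlapping transcripts is not given in the sources used here, and its part in these shares was not tested.

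TPM gave another picture, because it divides the count by the length of the transcript. The share of TPM on these genes was 1.08% ± 0.108 (SD, n = 3), which was 12.1-fold their share of counts. The detected ones had a median length of 118 bases, a median mean count of 18 and a median mean TPM of 28.5. For detected protein-coding genes these medians were 4127.5 bases, 117 counts and a TPM of 9.77. Length is that of the longest listed transcript of a gene, so it is not the length that divided every count. A mean TPM of at least 1 was reached by 509 small RNA genes, against 21.7% of all genes, and 192 of these 509 had no more than 3 counts in any replicate. Counts were therefore used below for every level, and TPM stands beside them only for single genes.

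**Figure D1:**
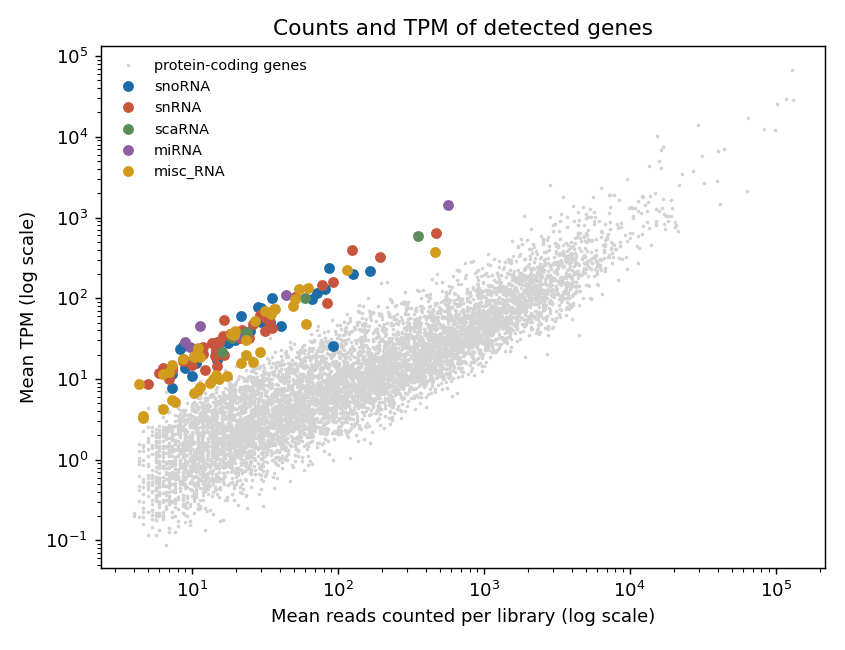
Mean counts per library (x, log scale) and mean TPM (y, log scale) of the 126 detected small RNA genes, coloured by biotype, and of 7874 detected protein-coding genes in grey. At the same count the small RNA genes lay mostly above the protein-coding genes in TPM.

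The 5 biotypes differed in how many genes were found. Per 1000000 counts, the sums were 185 ± 32.5 on snoRNA genes, 266 ± 94.0 on snRNA genes, 72.0 ± 19.97 on scaRNA genes, 108 ± 16.2 on miRNA genes and 258 ± 67.0 on misc_RNA genes (SD, n = 3). The detected genes were 28 of the snoRNA genes (2.98%, 95% Wilson interval over genes 2.07 to 4.27), 43 of the snRNA genes (2.26%, 1.68 to 3.03) and 43 of the misc_RNA genes (1.94%, 1.45 to 2.61). For scaRNA genes there were 6 (12.2%, 5.73 to 24.2) and for miRNA genes 6 (0.320%, 0.147 to 0.696). With replicate 2 left out, 12 miRNA genes passed. scaRNA genes were thus detected most often and miRNA genes least often. The intervals are over genes, which are not independent replicates, so they give no test between biotypes. The sums themselves rested on few genes, since the 6 genes with most counts held between 44.3% (misc_RNA) and 96.5% (scaRNA) of the counts of their biotype.

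**Figure D2:**
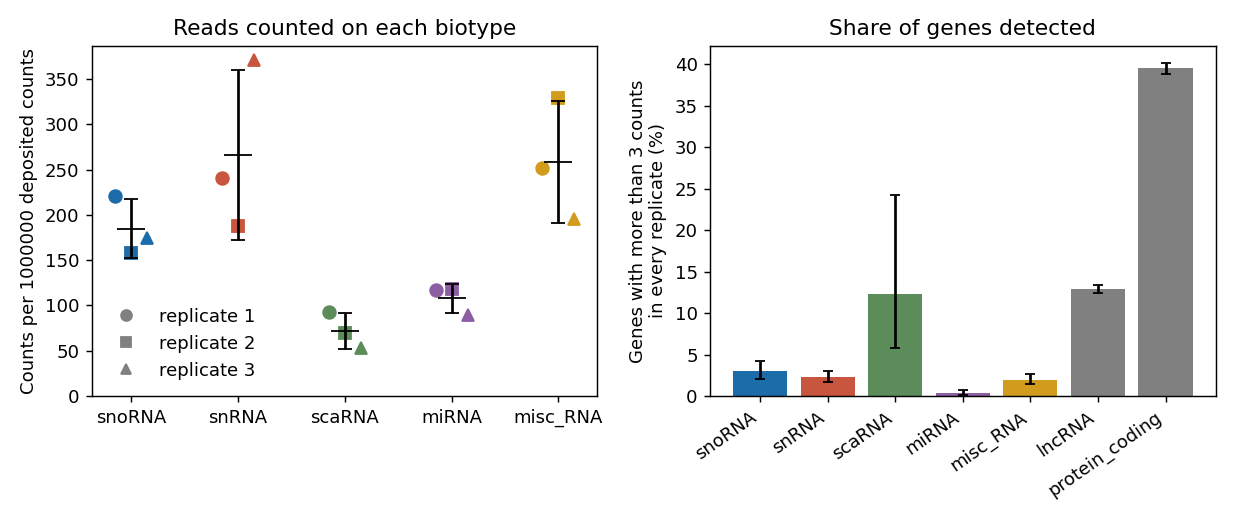
Left, counts per 1000000 deposited counts on each biotype in the 3 replicates, with mean and SD; right, the share of genes with more than 3 counts in every replicate, with 95% Wilson intervals over genes. Detection ranged from 0.320% for miRNA genes to 12.2% for scaRNA genes, below the 39.5% of protein-coding genes.

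Among snoRNA genes, box H/ACA members led. SNORA12, a gene in an intron of CWF19L1, had 150, 97 and 256 counts in replicates 1, 2 and 3, with a TPM of 219 ± 44.8 (SD, n = 3). SNORA79, in an intron of GTF2A1, which encodes a subunit of the general transcription factor TFIIA, had 189, 118 and 74. SNORA12 was highest in replicate 3 and SNORA79 lowest there, so the replicates did not move together. The genes around them also differed, with 0, 8 and 1 counts on CWF19L1 and 1842, 1528 and 2036 on GTF2A1.

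SNORA59B, in an intron of the transporter gene SLC47A1, had 97, 54 and 127 counts, although its annotated length of 701 bases is far above that of SNORA12, at 147. SNORD104, a box C/D gene in an intron of the noncoding host gene SNHG25, had 66, 51 and 146 counts and the highest mean TPM of the snoRNA genes, 237 ± 66.3 at 70 bases. SNHG25 itself had 0, 1 and 5 counts. A snoRNA gene without a symbol, ENSG00000202343, had 82, 94 and 71 counts, and SNORA11F, on the strand opposite to NUDT13, had 79, 57 and 79. These last 2 varied least between the replicates among the 6 leading snoRNA genes.

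By family, 12 of 213 SNORA genes (5.63%) and 8 of 314 SNORD genes (2.55%) were detected, with 962, 566 and 770 counts on the former and 265, 198 and 404 on the latter. SNORA genes had more counts than SNORD genes in each replicate. Of 10 well-known genes of the snoRNA biotype, 6 were at 0, and 4 of these 6, SNORD118, SNORA73A and both genes named SNORD22, lay wholly in same-strand exons of other genes in the tables. SNORD3A, the U3 RNA of early ribosomal RNA processing, had 0, 1 and 0 counts, with 0.15% of its 31-base words found once in the genome, and SNORD118 (U8) and SNORD13 (U13) were at 0. SNORA73B, a U17 RNA that acts in cleavage of the ribosomal precursor, had 14, 4 and 4 counts and was detected. SNORD14A, in an intron of the ribosomal protein gene RPS13, had 10, 3 and 29 and fell just outside the rule because of its 3 counts in replicate 2. SCARNA12, of which 88.5% lay in an exon of PHB2, was at 0, and SCARNA10 had 0, 0 and 1.

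Among the snRNA genes named here, mean counts were highest on a U5 variant, an RNA of the minor spliceosome and an RNU7 copy. They were lower on the well-known genes of the main spliceosomal RNAs. RNU5F-1, a U5 gene on the strand opposite to ARMH1, had 95, 78 and 1250 counts, and ARMH1 was at 0 in the 3 libraries. Per count outside the mitochondrial genome, its highest replicate was 14.97-fold its lowest. Replicate 3, which held the 1250 counts, was also the library with 25.8% of mitochondrial counts, and the part of this in the result was not tested. Of all words of 31 bases in RNU5F-1, 87.4% were found once in the genome. Without RNU5F-1, the snRNA genes had 209 ± 29.1 counts per 1000000 in place of 266 ± 94.0, so this 1 gene carried most of the spread of its biotype.

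RNU4ATAC, the U4atac RNA of the minor spliceosome, had 254, 169 and 160 counts and a TPM of 326 ± 127. It lies in an intron of CLASP1-AS1, which had 2, 0 and 0 counts, and all of its 31-base words were found once in the genome. RNU7-75P, an RNU7 copy opposite to NUP155, had 140, 64 and 171 counts. RNU4ATAC was highest in replicate 1, and RNU7-75P in replicate 3.

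RNU6-8, a U6 gene between other genes and with 1 identical annotated copy, had 72, 37 and 170 counts. None of its 31-base words was found only once in the genome, so its count is uncertain as a value of this gene. RNU2-63P, a U2 copy, had 92, 61 and 99, and RNU6-817P, a U6 copy, had 67, 55 and 111. All 3 were lowest in replicate 2, the library with the fewest counts.

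By family, 21 of 1276 RNU6 genes (1.65%), 1 of 116 RNU1 genes (0.862%), 2 of 71 RNU2 genes (2.82%), 5 of 90 RNU4 genes (5.56%) and 4 of 31 RNU5 genes (12.9%) were detected. For the U1 variant genes (RNVU1) it was 4 of 27 (14.8%), and for RNU7 it was 2 of 149 (1.34%). Of 13 well-known snRNA genes, 5 were at 0 and 6 were detected. RNU1-1 had 0, 3 and 0 counts, RNU6-1 had 0, 0 and 1, and RNU2-1 was at 0. RNU4-2 had 36, 39 and 26, RNU4-1 16, 6 and 8, RNU5B-1 41, 19 and 37 and RNU5A-1 7, 6 and 9. RNU6ATAC, the U6atac RNA of the minor spliceosome, had 21, 11 and 32, whereas its partners RNU11 and RNU12 and the histone-processing gene RNU7-1 were at 0. RN7SK, which restrains the elongation factor P-TEFb and is an snRNA gene in GENCODE, was also at 0 and lay wholly in an exon of another 7SK annotation that was at 0. No 31-base word of RNU1-1, RNU2-1 or RNU6-1 was found only once in the genome, compared with 60.4% of those of RNU4-2 and 39.5% of those of RNU5B-1. RNU11, RNU12 and RNU7-1 lay by 97.8%, 100% and 98.4% of their bases in same-strand exons of other genes. A count of 0 therefore limits what was counted at these genes, not how much of the RNA was in the cells.

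Among scaRNA genes, SCARNA22 (ENSG00000249784, chr4:1974636-1974760, plus strand) held 69.1% of the counts of its biotype. It had 436, 283 and 348 counts and a TPM of 592 ± 176, and it lies within NSD2, which encodes a histone methyltransferase and had 97, 75 and 95 counts. GENCODE places SCARNA22 in an exon of NSD2, but no exon of the transcripts in the deposited tables covered it. SCARNA22 was above the count of NSD2 in each replicate, but how reads on several transcripts of NSD2 were counted is not given in the sources used here, and the NSD2 count may therefore be too low for this comparison. The next was SCARNA8, in an intron of the augmin subunit gene HAUS6, with 88, 60 and 31 counts.

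SCARNA14 had 28, 27 and 17 counts, SCARNA11 27, 26 and 14, SCARNA23 25, 21 and 11 and SCARNA1 29, 13 and 6. By count, these 4 and SCARNA8 were each highest in replicate 1 and lowest in replicate 3, and all 5 were in introns on the strand of the surrounding gene. Per 1000000 counts, all 5 were still lowest in replicate 3, but SCARNA14 and SCARNA11 were highest in replicate 2. Of 6 further well-known scaRNA genes, SCARNA7 had 3, 2 and 3 counts and SCARNA5 had 4, 0 and 3, and SCARNA2, SCARNA6, SCARNA13 and SCARNA17 were at 0. SCARNA2, SCARNA13 and SCARNA17 lay wholly in exons of other genes. Without SCARNA22, the scaRNA genes had 22.6 ± 9.39 counts per 1000000 (SD, n = 3) in place of 72.0 ± 19.97.

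Among miRNA genes, MIR1244-2 (ENSG00000283498, chr5:118974586-118974670, plus strand) held 74.3% of the counts. It had 617, 599 and 505 counts and, at 85 bases, a TPM of 1443 ± 493, the highest of all small RNA genes. Its 85 bases are identical in 4 annotated genes, of which MIR1244-3 had 50, 40 and 43 counts, MIR1244-4 had 1, 7 and 2 and MIR1244-1 was at 0. No 31-base word of the 4 was found once in the genome, and all of their words were also in transcripts of PTMA, the gene of prothymosin alpha, which had 22, 19 and 19 counts. MIR1244-1 lies wholly in an exon of PTMA. The counts of the 4 copies are thus uncertain as values of single genes.

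Without the MIR1244 copies, the miRNA genes had 20.3 ± 4.98 counts per 1000000 (SD, n = 3) in place of 108 ± 16.2. The others that were detected were MIR10B, in an intron of HOXD3, with 17, 8 and 35 counts, MIR320D1 with 13, 5 and 16, MIR3682 with 12, 9 and 8 and MIR4292 with 14, 7 and 6. Each of these 4 was at or below 35 counts in every library. The well-known genes MIR17, MIR18A, MIR19A, MIR20A, MIR19B1 and MIR92A1 of the MIR17HG cluster, MIR21, MIR16-1, MIRLET7A1 and MIR1244-1 were all at 0. Of these 10 genes, 9 lay wholly in exons of other genes, among them MIR17HG with 2, 0 and 3 counts and VMP1 with 5, 0 and 5. Mature miRNAs are shorter than most fragments of such libraries and carry no poly(A) tail, and no level of a mature miRNA can be read from these counts.

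Among misc_RNA genes, RN7SL1, the gene for the RNA of the signal recognition particle, led with 336, 910 and 152 counts. It was highest in replicate 2, and its highest value per count outside the mitochondrial genome was 6.41-fold its lowest. RN7SL3 had 35, 119 and 28 counts, and RN7SL4P had 11, 56 and 4, both likewise highest in replicate 2, while RN7SL2 was at 0. None of the 31-base words of RN7SL1 and 24.2% of those of RN7SL3 were found once in the genome. The counts are thus uncertain as values of single copies, although the paper gives longer reads, whose assignment was not tested. RN7SL2 lies wholly in an exon of another annotated gene. RN7SL4P was named after its values were seen.

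The 848 RN7SL genes, Metazoa_SRP copies included, together had 829, 1413 and 679 counts, and 19 of them were detected. Without them, the misc_RNA genes had 117 ± 15.4 counts per 1000000 in place of 258 ± 67.0. Of the 812 Y RNA genes, 21 were detected, with 781, 550 and 849 counts together. Per 1000000 counts the Y RNA genes had 99.6 ± 11.7 (SD, n = 3), a spread well below that of the RN7SL genes, at 141 ± 75.7.

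The Y RNA copy ENSG00000252965, between other genes, had 102, 111 and 133 counts, and the copy ENSG00000252759, in an intron of the splicing kinase gene CLK1, had 74, 41 and 74. Both were above RNY1, with 54, 56 and 43, and RNY4, with 43, 27 and 25, in sum over the replicates, and RNY3 had 6, 6 and 0. Words of 31 bases found once in the genome made up 94.7% and 93.9% of those of the 2 copies, compared with 4.82% for RNY1 and 1.52% for RNY4. Words of this length thus told the copies apart and mostly did not tell the functional genes apart. The paper gives longer reads, and how far these could be assigned was not tested. The vault RNA gene VTRNA1-3 had 64, 50 and 48 counts. Of 300 genes named after RN7SK or 7SK, all of them misc_RNA genes apart from RN7SK itself, 1 was detected.

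**Figure D3:**
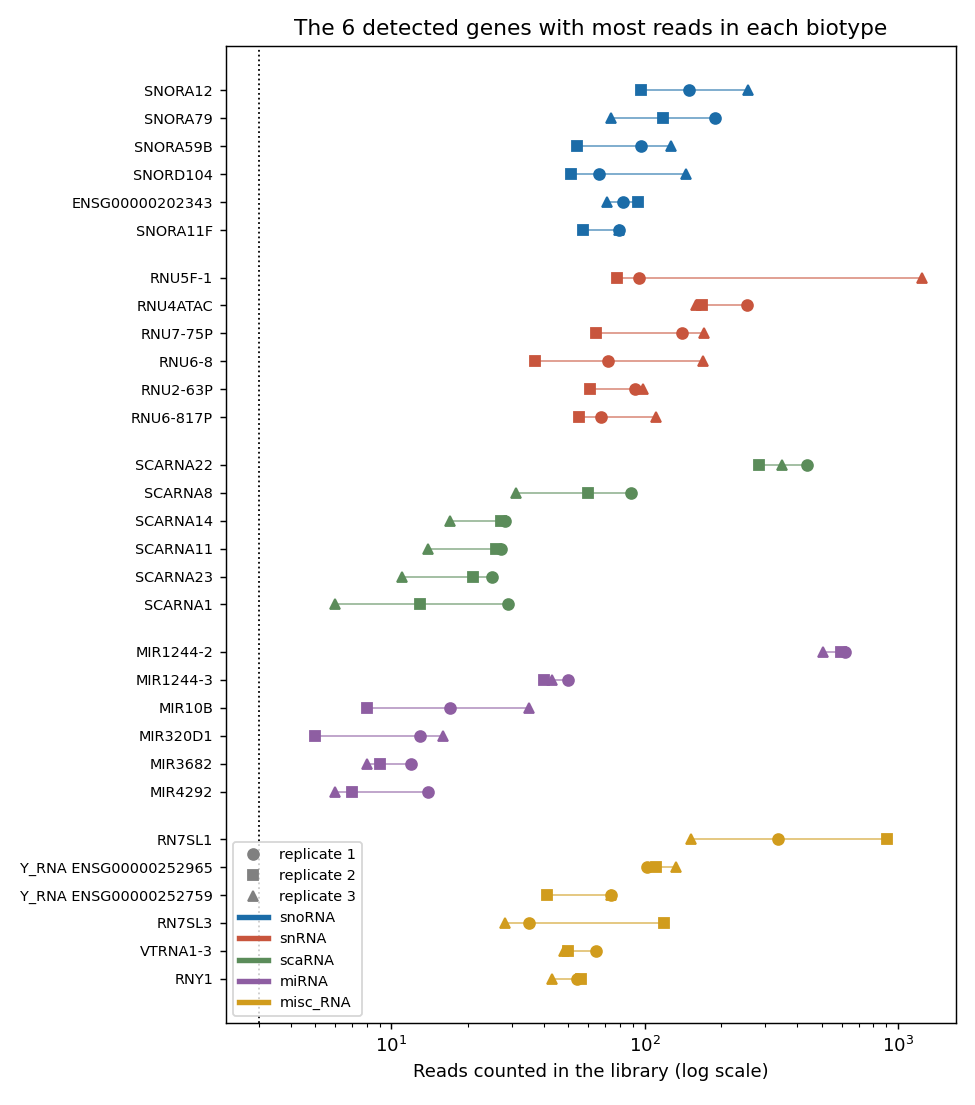
Counts in each replicate (x, log scale) of the 6 detected genes with most counts in each biotype; lines join the lowest and the highest replicate and the dotted line marks 3 counts. RNU5F-1 (95, 78 and 1250) and RN7SL1 (336, 910 and 152) had the widest ranges among the genes shown with more than 300 counts in a library.

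Over the 126 detected genes, the median coefficient of variation across the replicates, of counts scaled to the total outside the mitochondrial genome, was 36.9%. Counting error alone, from the mean count of each gene, gave a median of 23.6%. On the same scale, the median ratio of the highest to the lowest replicate was 1.91 for miRNA, 2.08 for misc_RNA, 2.08 for snRNA, 2.13 for scaRNA and 2.29 for snoRNA genes. Ratios above 5 were seen for 2 misc_RNA genes, RN7SL1 and RN7SL4P, and 1 snRNA gene, RNU5F-1. Replicate 3 was the highest for 24 of the 43 snRNA genes and 21 of the 43 misc_RNA genes, but for none of the 6 scaRNA genes. Across 321 genes with more than 3 counts in at least 1 replicate, the Pearson coefficient of log2(counts per 1000000 + 1) was 0.867 between replicates 1 and 2, 0.847 between 1 and 3 and 0.790 between 2 and 3. Genes are not independent replicates, and no p is given.

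Position against other genes went with detection. Of the 126 detected genes, 78 lay in an intron of another gene on its strand, 19 in an intron on the opposite strand, 21 between genes, 6 at an exon on the same strand and 2 at an exon on the opposite strand. Introns of either strand thus held 97 of 126 (77.0%), compared with 56.1% of the genes not detected. For snoRNA genes it was 26 of 28 (92.9%) compared with 49.7%, for scaRNA genes 5 of 6 compared with 41.9%, for misc_RNA genes 32 of 43 (74.4%) compared with 55.5% and for snRNA genes 29 of 43 (67.4%) compared with 58.8%. For miRNA genes it was 5 of 6 compared with 57.6%. The difference was widest for snoRNA and scaRNA genes and narrowest for snRNA genes, with 6 detected genes each behind the scaRNA and miRNA shares.

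The share with a count also differed by strand. At least 1 count was found for 488 of 2632 genes in introns on the same strand (18.5%), 133 of 1311 in introns on the opposite strand (10.1%) and 180 of 1809 between genes (9.95%). Genes opposite to an intron thus had counts about as often as genes outside any other gene. For snoRNA genes these shares were 31.7%, 6.85% and 6.95%, and for snRNA genes 23.2%, 10.2% and 10.9%. For misc_RNA genes they were 25.2%, 13.2% and 12.8%, and for miRNA genes 4.52%, 3.25% and 2.02%. For scaRNA genes, 12 of 18 in introns on the same strand had a count. Whether counting used the strand is not given in the sources used here.

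The share also moved with the counts of the surrounding gene. Of the genes in introns on the same strand, 7.83% (95% Wilson interval 6.07 to 10.1) had a count where the surrounding gene was at 0, 25.4% (21.7 to 29.4) where its mean was above 10 and up to 100 counts and 33.1% (26.4 to 40.6) where it was above 1000. On the opposite strand, the same shares were 5.76% (3.76 to 8.73), 9.39% (6.34 to 13.7) and 17.4% (10.9 to 26.8). For snoRNA genes on the same strand the share was 3 of 54 (5.56%) at hosts with 0 counts and 23 of 37 (62.2%) at hosts above 1000 counts, whereas for miRNA genes it was 6 of 251 (2.39%) and 1 of 44 (2.27%). The share among snoRNA genes was thus higher at hosts with more counts, and among miRNA genes it showed no such order. Even so, of the 77 detected genes in same-strand introns with a host in the tables, 36 had a higher mean count than the gene around them. The counts of surrounding genes are per transcript summed, and genes such as PTMA with 22, 19 and 19 counts and KRT18 at 0 stood low in these tables, so they may understate the gene around, and the part of this was not tested. In such libraries an RNA cut from an intron and the unspliced transcript around it cannot be told apart.

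**Figure D4:**
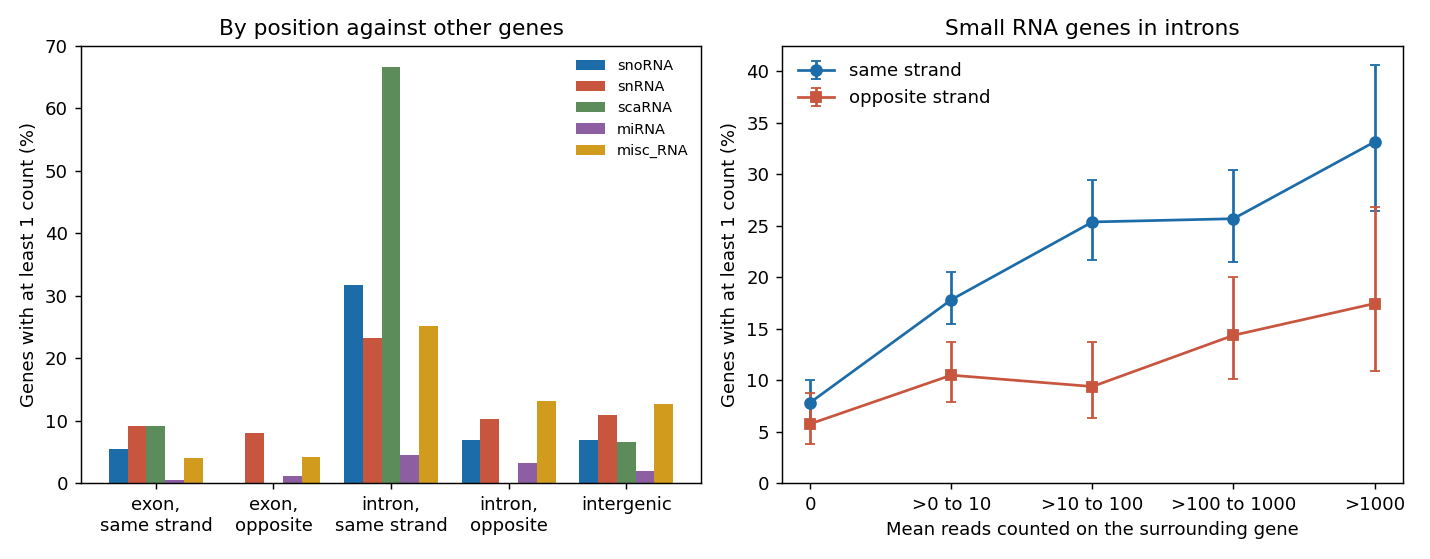
Left, the share of small RNA genes with at least 1 count by position against other genes, for each biotype; right, the share among genes in introns by the mean count of the surrounding gene, with 95% Wilson intervals over genes. On the same strand it went from 7.83% at surrounding genes with 0 counts to 33.1% above 1000 counts, and on the opposite strand from 5.76% to 17.4%.

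Genes within exons of other genes were almost without counts. Of 643 genes that lay wholly in an exon, on the same strand, of another gene's transcript in the deposited tables, 4 had a count (0.622%, 95% Wilson interval 0.242 to 1.59). Of 254 wholly in an exon on the opposite strand it was 1 (0.394%, 0.0695 to 2.196), of 292 partly in an exon 20 (6.85%, 4.48 to 10.3) and of 5815 outside such exons 816 (14.0%, 13.2 to 14.9). Among miRNA genes, 261 lay wholly in same-strand exons and 1 of them had a count, and among snoRNA genes it was 2 of 194. Genes covered on both strands are in both of the first classes. How reads on overlapping transcripts were counted is not given in the sources used here, and its part in these shares was not tested.

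An A-rich stretch, at least 8 A in a window of 10 bases from the start of the gene to 100 bases past its end, was found in 83 of the 126 detected genes (65.9%) and in 48.1% of those not detected. The biotypes differ in this share, so each was compared apart. It was 83.7% of detected (95% Wilson interval 70.0 to 91.9) and 69.8% of undetected misc_RNA genes (67.9 to 71.7), 62.8% and 61.3% of snRNA genes and 14 of 28 detected and 43.3% of undetected snoRNA genes. For scaRNA genes it was 3 of 6 and 46.5%, and for miRNA genes 3 of 6 (18.8 to 81.2%) and 12.1%. The shares of snRNA genes lay close together, the intervals of misc_RNA genes overlapped, and the miRNA share rests on 6 genes. No test of these differences was made. The misc_RNA sets also differed in make-up, with a median length of 126 bases for detected and 250 for undetected genes. The stretch searched is longer in longer genes. Of the 43 detected misc_RNA genes, 21 were Y RNA genes and 19 RN7SL genes. Families within misc_RNA were not compared apart, here or in the next paragraph. Of the 3 detected miRNA genes with one, 2 were the identical copies MIR1244-2 and MIR1244-3.

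In misc_RNA genes the stretch often sat at the annotated end. It began within 10 bases of the end in 27 of 43 detected genes (62.8%) and in 46.6% of the others, a distance chosen after the values were seen, and elsewhere or nowhere in the rest. Y_RNA ENSG00000252759, whose end is printed above, had 10 A in its window, beginning 2 bases before its end. Genes without a stretch were also detected, such as RNY1 and RNY4, SNORA12 and SCARNA8. A stretch of A in the genome is a description of the sequence and not of where priming took place.

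**Figure D5:**
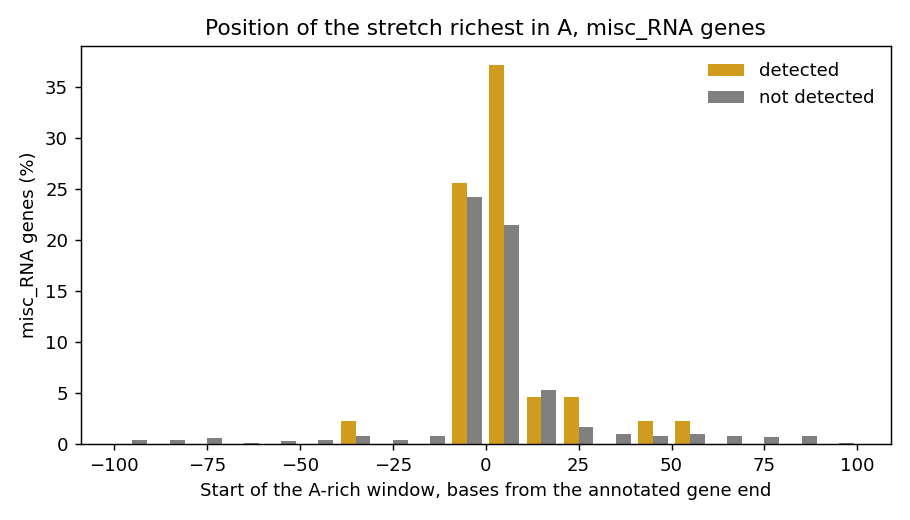
Share of misc_RNA genes (y) by where the A-rich window begins, in bases from the annotated gene end (x, 10-base bins), for detected and undetected genes; windows further than 100 bases before the end are not drawn. The bins next to the end held 25.6% and 37.2% of the detected genes, compared with 24.2% and 21.5% of the others.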

How the data were processed

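RNA-seq of 3 HEK293T replicates was used, made from total RNA with a QuantSeq 3′ mRNA-seq kit. According to the submitters' processing notes, Trimmomatic 0.38.0, HISAT2 2.2.1 and featureCounts 2.2.1 were used with the hg38 genome. Settings for strand and for reads on several transcripts are not given in the sources used here. The authors deposited whole-number read counts per transcript without normalization, the transcript length in bases (unit other) and TPM, which is the count over the length rescaled to 1000000 per library.

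Transcript identifiers without version were joined to GENCODE v44 (GRCh38), and 223558 of 247541 matched; counts and TPM were summed per gene. The other transcripts, with 0.158% to 0.166% of the counts, stayed in the totals. All 6979 deposited lengths of small RNA genes equalled the annotated exon length. Totals of 6262175 to 8521624 counts put the 95% limit of about 3 counts for a 0 at 0.352 to 0.479 per 1000000. Intervals are 95% Wilson intervals over genes, and limits cover counting error only, since the reads were not collapsed by molecular identifiers and may repeat a molecule. Genome words had 31 bases and were searched on both strands of the main chromosomes. Sequences were read from GRCh38, and mature miRNAs from RefSeq.

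Genes named are the 6 with the highest mean count among those detected in each biotype, the one with the highest mean TPM, and 46 well-known genes whatever their values, of which SCARNA9 and RNY5 were not found by symbol. Members and lists were chosen with earlier results of these data known. With 1 condition, no test between groups was made. Alternatives were other detection rules, denominators without mitochondrial counts, exclusion of overlapping or identical genes, another pseudocount and leaving out each replicate. Counting and sequence searches were tested on simulated data. Python 3.11.15, numpy 2.4.6, pandas 2.3.3, scipy 1.17.1 and matplotlib 3.10.9 were used.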

Additional observations from a re-analysis of the deposited data

How the results depend on the processing

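The number of genes found depended most on the rule. With at least 1 count in any replicate, 143 snoRNA, 279 snRNA, 14 scaRNA, 56 miRNA and 349 misc_RNA genes passed, and with a mean TPM of at least 1 it was 114, 181, 11, 44 and 159, in place of 28, 43, 6, 6 and 43. Leaving out each replicate in turn gave 6 to 12 miRNA genes, the 12 without replicate 2. Counts per 1000000 on miRNA genes were 125 with mitochondrial counts left out of the denominator and 20.2 without genes that have an identical copy, and on scaRNA genes 22.6 without genes overlapping an exon of another gene. The share of counts on all small RNA genes was 0.104% without mitochondrial genes in the denominator and 0.0803% without genes overlapping an exon, and their share of TPM was 1.52% and 0.969%. The mean Pearson coefficient between replicates, 0.835, was 0.684 with a pseudocount of 0.1 and 0.899 over all small RNA genes, and 0.790 to 0.867 leaving out each replicate. Leaving out single families was added after seeing the data, and gave 117 for misc_RNA genes without RN7SL copies, 20.3 for miRNA genes without MIR1244 copies and 22.6 for scaRNA genes without SCARNA22. The other 72 values stayed within set limits. These were the spread of the replicates or, for counts of genes, 1.5 times. For the shares with an A-rich stretch and in introns they were 8.17 and 7.28 percentage points, from the Wilson intervals over genes. With 200 bases past the end, the A-rich share was 73.8%, compared with 65.9%. No paired analysis was possible because there was 1 group. Depth limited the results at single genes, whose detected median was 18 counts.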
